A study of Mus musculus with 2 samples.

Results

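The clustered histone genes are the gene rows whose symbol begins with Hist1h, Hist2h, Hist3h or Hist4, which were 69 of the 28692 gene rows in the single-cell count tables. By class they comprised 6 H1, 19 H2A, 19 H2B, 12 H3 and 13 H4 genes. They were measured in subcutaneous tumours of A20, a mouse B-cell lymphoma line, grown in BALB/c mice with their own immune cells. The TAK-981 arm received 7.5 mg/kg intravenously and the control arm received its vehicle, 20% HPbCD, and both tumours were taken at 8 h. Each arm gave 1 library from the 5′ droplet kit on polyA RNA, after removal of dead cells, and the labels do not say how many mice each library holds. With 1 library per arm there is no replicate check of any difference, so no test between arms was made. The 95% intervals given here cover counting error only.

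Histones package DNA: H2A, H2B, H3 and H4 form the nucleosome core, and H1 binds the linker DNA between nucleosomes. Most genes of the clusters are transcribed mainly in S phase, and their mRNAs usually end in a conserved stem-loop bound by SLBP in place of a poly(A) tail, although some members also make polyadenylated mRNA. TAK-981 blocks SUMOylation at its first step, the activation of the ubiquitin-like modifier SUMO, whose targets include many chromatin and replication proteins.

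The stem-loop is shown because an oligo(dT)-primed library reaches these mRNAs by a poly(A) stretch. In GENCODE M21 transcripts (GRCm38), 67 of the 69 genes were matched by identifier, and 39 of these held a perfect stem-loop of 16 bases. It was found in 47 of 55450 annotated genes (0.0848%). Several models without it were short, such as Hist1h4k at 312 bases and Hist1h2bl at 381, and may end before it. Absence from a model is therefore not absence from the gene. There were 4 versions of the stem-loop, given 5′ to 3′ with the 4-base loop in capitals. The first was in 24 members of H1, H2A, H2B and H3, among them Hist1h1c, Hist1h2ae and Hist3h2ba. The H4 version was in 7 H4 genes, among them Hist1h4d. The version with a TTTA loop was in 6 members, among them Hist1h3e, and the last was in Hist1h4b and Hist1h4j.
Shared version: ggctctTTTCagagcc
H4 version: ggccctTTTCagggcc
TTTA-loop version: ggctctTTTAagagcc
Hist1h4b and Hist1h4j version: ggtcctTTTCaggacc

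The libraries held 2396 barcodes and 37470319 unique molecular identifiers (UMIs, each counting 1 captured RNA molecule) for TAK-981, and 2579 barcodes and 57471750 UMIs for vehicle, and 11 barcode sequences were in both. After barcodes with 10% or more mitochondrial UMIs were left out (15.7% of the TAK-981 and 4.81% of the vehicle barcodes), 1754 and 2191 A20 cells, 45 and 60 T cells and 39 and 44 myeloid cells were taken by their Cd79a, Cd3 and Lyz2 UMIs. All 8 B-cell markers had UMIs in A20 cells, where Cd3d, Cd3e, Cd3g and Lyz2 were at 0 by the rule. Median UMIs per A20 cell were 16195 with TAK-981 and 22309 with vehicle, and median mitochondrial shares were 2.60% and 2.05%. Alternatives thinned cells to 4000 UMIs, left out the 5% of cells with most UMIs, or used other mitochondrial limits. Beyond these alternatives, the part of depth and cell quality in the results was not tested.

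In A20 cells, captured histone mRNA was slightly more abundant in the TAK-981 library, and the classes differed. The UMIs count only histone RNA reached by a poly(A) stretch, so these values are not levels of all histone mRNA. Whether the share of histone mRNA with such a stretch differed between arms was not tested. Levels are given as CPM, each member's or class's UMIs scaled to the total UMIs of the same cells. All members together held 34034 UMIs with TAK-981 (1048 CPM) and 49537 with vehicle (934 CPM), a ratio of 1.12, or 0.17 on the log2 scale (interval 0.15 to 0.19). H4, the core histone with the largest ratio, was at 102 CPM with TAK-981 and 73.3 CPM with vehicle, a log2 ratio of 0.48 (0.41 to 0.55). H2B was at 103 and 78.8 CPM, a log2 ratio of 0.38 (0.32 to 0.45). H3 was at 90.9 and 78.8 CPM, a log2 ratio of 0.21 (0.14 to 0.27). The linker histone H1 was at 327 and 293 CPM, a log2 ratio of 0.16 (0.13 to 0.20). H2A was nearly level, at 425 and 411 CPM, a log2 ratio of 0.05 (0.02 to 0.08), and its direction turned under other settings (-0.03 after thinning every cell to 4000 UMIs). The H2A log2 ratio minus that of H4 was -0.43 (-0.50 to -0.36), while H1 minus H3 was -0.04 (-0.12 to 0.03), an interval that includes 0.

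**Figure D1:**
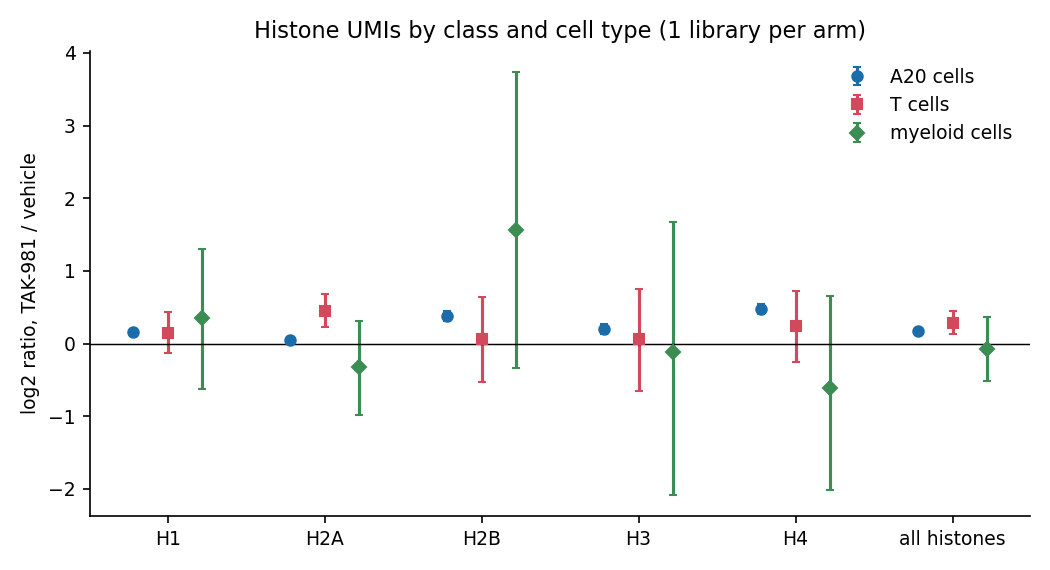
Log2 ratio of histone CPM, TAK-981 over vehicle, for each class (x axis) in A20, T and myeloid cells; bars are 95% intervals from counting error, with 1 library per arm. In A20 cells H4 (0.48) and H2B (0.38) lie above H2A (0.05), and the myeloid intervals are wide.

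Of the 69 members, 66 had a UMI in A20 cells and 58 had at least 10 in both libraries together. Of these 58, 48 (82.8%) had a ratio above 1, beside 59.8 percent of all 12250 genes with as many UMIs. With every cell thinned to 4000 UMIs it was 33 of 50 members, and under median-of-ratios scaling 44 of 58. At least 2-fold higher with TAK-981 were 7 members (3.46 percent of all genes), and 0 were at least 2-fold lower (1.5 percent of all genes). The median log2 ratio was 0.32 over the 58 members and 0.06 over all genes.

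Among the H1 genes, 2 stood above the rest. Hist1h1a had 1113 UMIs with TAK-981 (34.3 CPM) and 1200 with vehicle (22.6 CPM), a log2 ratio of 0.60 (0.48 to 0.72). Hist1h1c, an H1 gene also known to make polyadenylated mRNA, had 959 UMIs (29.5 CPM) and 1092 UMIs (20.6 CPM), a log2 ratio of 0.52 (0.39 to 0.65). The most counted H1 gene, Hist1h1e, had 4219 and 6116 UMIs and a log2 ratio of 0.17 (0.11 to 0.23). Hist1h1b had 2919 and 4900 UMIs and a log2 ratio of -0.04 (-0.11 to 0.03), and Hist1h1d 1417 and 2200 UMIs and 0.07 (-0.02 to 0.17). For both of these the interval includes 0, so the H1 difference was not shared evenly among its genes.

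The near-level H2A sum hid members on both sides of 0. Hist1h2ae carried 42.7% of the H2A UMIs, with 5869 and 9324 UMIs (181 and 176 CPM) and a log2 ratio of 0.04 (-0.01 to 0.09). Hist1h2ap was lower with TAK-981, at 3012 and 5649 UMIs (92.8 and 107 CPM) and a log2 ratio of -0.20 (-0.26 to -0.14). Hist1h2al was higher, at 2914 and 4078 UMIs (89.8 and 76.9 CPM) and 0.22 (0.15 to 0.29). Hist2h2ac, from the chromosome 3 cluster, had 474 and 534 UMIs and 0.54 (0.35 to 0.72). Hist1h2ak had 0.13 (-0.02 to 0.27) and Hist1h2ai 0.04 (-0.26 to 0.33), neither set apart from 0. Hist3h2a, of the small chromosome 11 cluster, was at 59 UMIs with TAK-981 and 41 with vehicle (1.82 and 0.77 CPM), a log2 ratio of 1.23 (0.63 to 1.84).

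Most of the H2B difference came from Hist3h2ba, which held 45.7% of the class. It had 1609 and 1826 UMIs (49.6 and 34.4 CPM) and a log2 ratio of 0.52 (0.43 to 0.62). Without it the H2B log2 ratio was 0.26, an alternative chosen after seeing the data. Hist1h2bc had 145 and 114 UMIs (4.47 and 2.15 CPM) and 1.05 (0.69 to 1.42). The 2 rows named Hist2h2bb gave 0.40 (0.21 to 0.59) and 0.26 (-0.08 to 0.59). Hist1h2bh, Hist1h2bm and Hist1h2bn lay slightly below 0, at -0.08, -0.27 and -0.15, with intervals that include 0. Hist1h2ba, known as a testis histone, had 11 UMIs with TAK-981, 9 of them in 1 cell, and 1 with vehicle, so its ratio describes few cells.

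Of the H3 genes, Hist1h3e held 60.3% of the class, with 1790 and 2509 UMIs (55.1 and 47.3 CPM) and a log2 ratio of 0.22 (0.13 to 0.31). Hist1h3f was at 0.35 (0.16 to 0.53). Hist1h3g (0.14), Hist1h3c (-0.02) and Hist1h3i (0.42) had intervals that include 0. Hist1h3b went the other way, with 31 UMIs with TAK-981 and 83 with vehicle and a log2 ratio of -0.71 (-1.36 to -0.10). Hist2h3c1 had 16 and 11 UMIs and 1.25 (0.05 to 2.50).

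In H4, the 12 members with at least 10 UMIs were all above 0, with a median log2 ratio of 0.54, except that Hist4h4 turned to -0.04 under median-of-ratios scaling and Hist1h4k to -0.15 after thinning. Hist1h4d, 40.1% of the class, had 1357 and 1529 UMIs (41.8 and 28.8 CPM) and a log2 ratio of 0.54 (0.43 to 0.64). Hist1h4i had 637 and 710 UMIs and 0.55 (0.39 to 0.71). Hist1h4h (0.58) and Hist2h4 (0.51) were alike, and Hist1h4k was at 0.27 (0.02 to 0.53). Hist4h4, the lone member on chromosome 6, was at 0.01 (-0.22 to 0.24), and Hist1h4b, with 25 and 16 UMIs, at 1.35 (0.39 to 2.35).

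**Figure D2:**
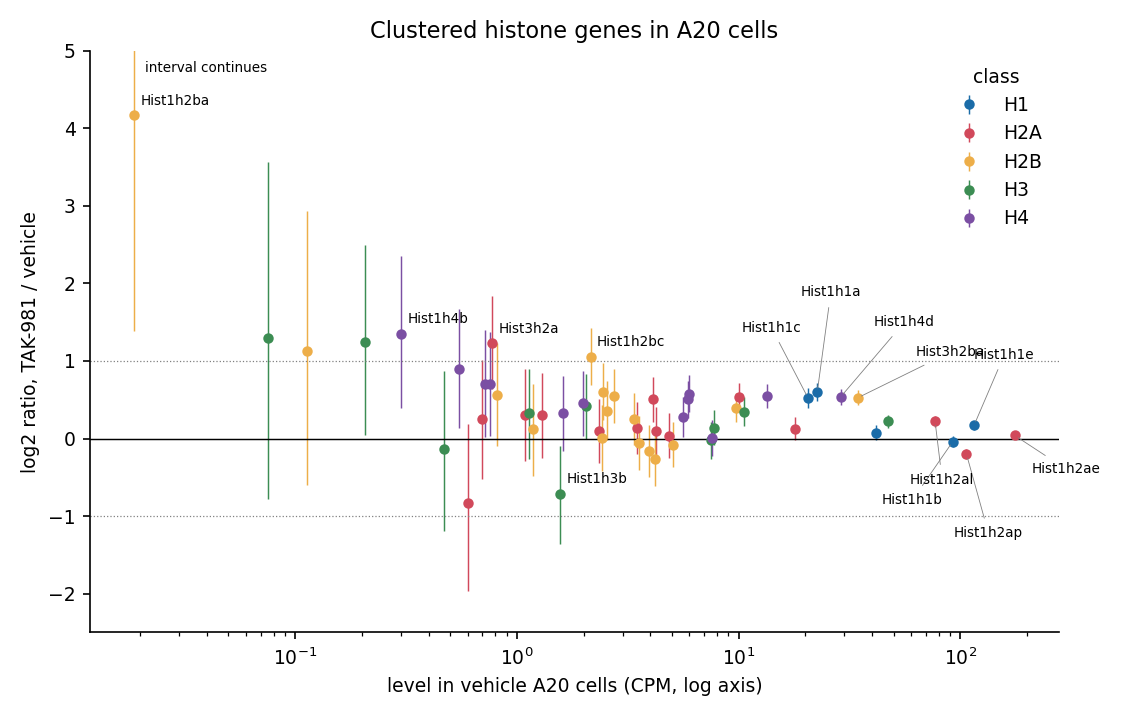
Each point is 1 of the 58 clustered histone genes with at least 10 UMIs in A20 cells: vehicle level (x axis, CPM, log scale) against the log2 ratio between arms (TAK-981 over vehicle), with 95% counting intervals. Points past the dotted 2-fold lines are mostly genes of low level, and the interval of Hist1h2ba continues above the axis to 9.59.

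Above 0 in A20 cells were 82.8% of the 58 measured members and 59.8 percent of all genes, with median log2 ratios of 0.32 and 0.06. The 5 members known also to make polyadenylated mRNA (Hist1h1c, Hist1h2bc, Hist2h2be, Hist3h2a and Hist3h2ba) were all above 0. Their median was 1.05 and their summed log2 ratio 0.56 (0.49 to 0.63). Of these, Hist2h2be had only 8 UMIs with TAK-981 and 6 with vehicle, and its interval (-0.59 to 2.93) includes 0. In T cells the same 5 summed to -0.35 (-1.12 to 0.37). This list was chosen with earlier results of these data known, and other members may also make polyadenylated mRNA. By sequence, the median log2 ratio was 0.32 for the 15 measured members with a stem-loop and no model running over 100 bases past it, 11 of them above 0. It was 0.35 for the 17 with a model running over 100 bases past the stem-loop, 17 of them above 0. For the 24 with no stem-loop in any model it was 0.30, 20 of them above 0. These groups follow the annotated models, some of which may end before the stem-loop. The 10 members with AATAAA, a poly(A) signal, after the stem-loop had a median of 0.42, and 10 were above 0. They ranged from 0.01 to 1.25. Stretches shared with other annotated genes, near-identical histone copies among them, limit single genes. A median of 47.7% of a member's 50-base windows was found in no other annotated gene, and 3 members, among them Hist2h3c1, had no such window. Hist3h2a had 68.5% unique windows, but 0% among its first 100. All 660 of its shared windows were in Trim17, which is not a histone gene. All 1771 windows of Hist2h3c1 were also in the annotated gene Gm20634. How far this entered the counts of these genes was not tested. Members with under 50% unique windows had a median log2 ratio of 0.22 (25 members), and the others 0.51 (31 members).

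Captured histone mRNA followed the S-phase transcripts in both arms. A20 cells of both libraries were cut into 4 equal ranges by the share of their UMIs from 38 replication genes, none of them a histone. These are ranges, not cell types, and 205 to 383 of the 3945 cells lay within 10% of a cut. From the lowest to the highest range, all histones went from 429 to 1692 CPM with TAK-981 and from 339 to 1355 CPM with vehicle. The TAK-981 library had 29.0% of its A20 cells in the lowest range and 22.5% in the highest, against 21.8% and 27.1% with vehicle. Within the 4 ranges the log2 ratios were 0.34, 0.25, 0.29 and 0.32, each above the ratio over all cells, and weighting the ranges equally gave 0.30. The replication list was itself lower with TAK-981 (summed log2 ratio -0.17, 6 of 38 genes above 0). Cells of the 2 arms in the same range may therefore differ in cycle position. The part of this in the ratios within ranges, of classes or single members, was not tested. In the highest range H3 was at 171 and 110 CPM (0.64) and H4 at 145 and 94.0 CPM (0.62). In the lowest range H3 was at 16.3 and 14.8 CPM (0.14, -0.22 to 0.50) and H4 at 74.8 and 52.4 CPM (0.51).

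**Figure D3:**
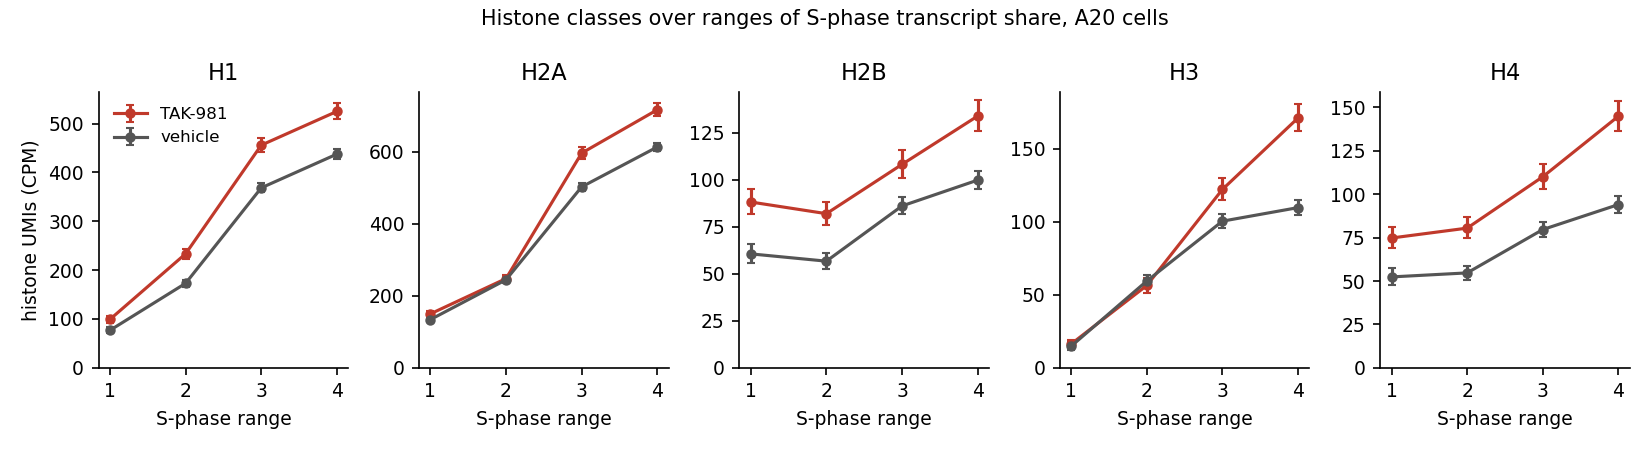
CPM of each histone class (y axis, from 0) in 4 ranges of S-phase transcript share (x axis, low to high) in A20 cells, TAK-981 and vehicle, with 95% counting intervals. H3 is level between arms in range 1 (16.3 and 14.8 CPM) and apart in range 4 (171 and 110 CPM), while H4 is apart in every range.

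The members followed the cycle to very different degrees. Hist1h1b went from 4.46 to 135 CPM across the ranges with vehicle and from 7.72 to 165 CPM with TAK-981. Hist1h2ap went from 8.47 to 163 CPM and from 8.60 to 161 CPM, with no gap between the arms at either end (log2 ratios 0.02 and -0.02). In the middle ranges it was at 57.0 and 146 CPM with TAK-981 and at 58.8 and 145 CPM with vehicle, so its lower level over all A20 cells was not seen within the ranges. Hist1h4d was higher with TAK-981 at both ends, at 11.8 against 6.68 CPM and 75.3 against 40.5 CPM. Hist1h3e was near level in the lowest range (10.00 against 8.58 CPM), lower with TAK-981 in the next (35.0 against 42.9 CPM) and higher in the highest (104 against 58.5 CPM).

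Other members did not follow S phase. Hist1h1c was highest in the lowest range, at 49.1 CPM with TAK-981 and 30.3 with vehicle, and was at 31.8 and 17.9 CPM in the third. In the highest range it was at 19.4 and 22.5 CPM, a log2 ratio of -0.21 (-0.50 to 0.07) whose interval includes 0. Hist1h2bc went from 7.84 to 3.30 CPM with TAK-981 and from 3.23 to 2.45 CPM with vehicle. Hist3h2ba was higher with TAK-981 in every range, at 62.6 against 44.0 CPM in the lowest and 49.96 against 34.9 CPM in the highest. Hist1h4i went from 35.9 to 11.9 CPM and from 27.96 to 11.7 CPM. Hist1h2al was at similar levels at both ends with a dip between them: over the 4 ranges it was at 101.1, 58.5, 96.4 and 105 CPM with TAK-981 and at 89.1, 60.9, 78.1 and 81.8 CPM with vehicle.

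**Figure D4:**
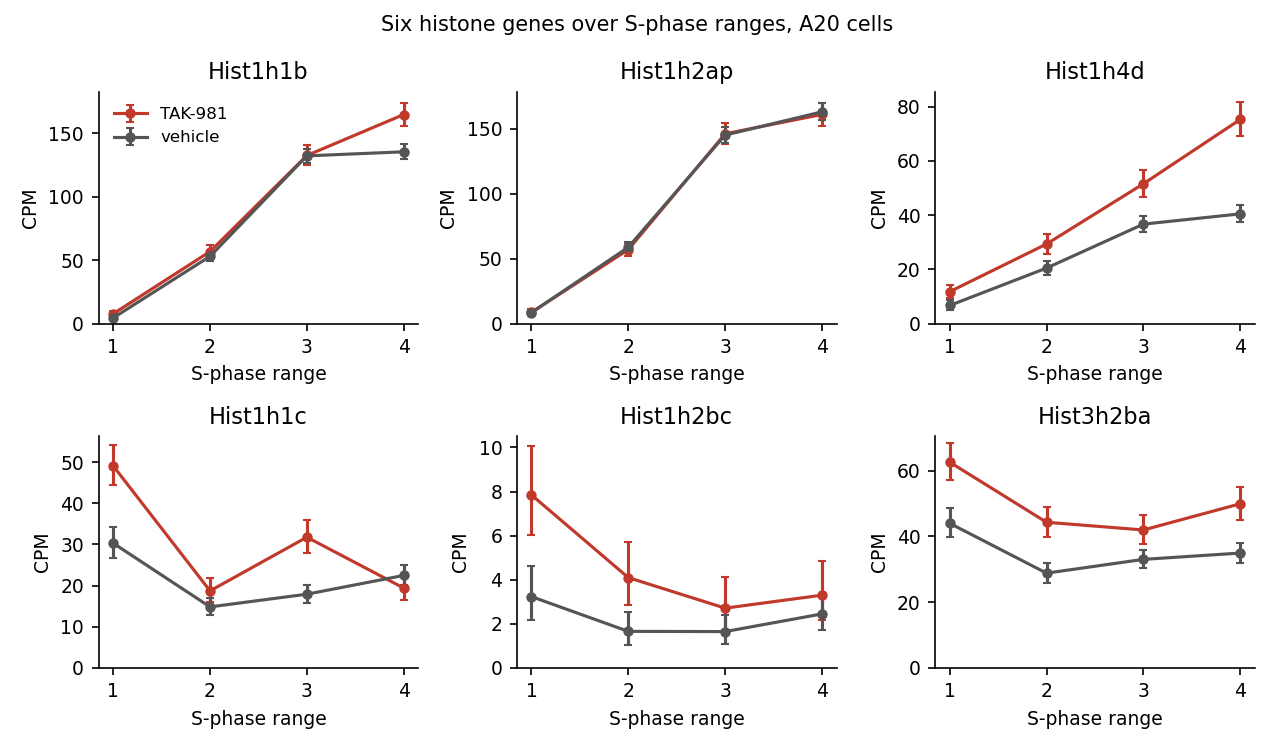
CPM of 6 histone genes (y axes, from 0, each with its own scale) in 4 ranges of S-phase transcript share in A20 cells, with 95% counting intervals. Hist1h1b, Hist1h2ap and Hist1h4d climb with the range, whereas Hist1h1c, Hist1h2bc and Hist3h2ba are highest in range 1.

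The 51 members with at least 50 UMIs were also put in 3 bands of 17 by how far they climbed across the ranges in the vehicle library. The band that climbed least had a median log2 ratio between arms of 0.52, the middle band 0.32 and the steepest band 0.07. The first held 7 H4 genes and the steepest 0. The bands use vehicle counts that also enter the ratio, so this order is a description. Within the highest range the summed log2 ratios of the bands were 0.36, 0.51 and 0.22.

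Cutting A20 cells by 30 G2/M genes as well placed the highest histone level in cells high for both lists. There it was 2743 CPM in 123 TAK-981 cells and 2557 CPM in 103 vehicle cells. In cells lowest for both lists it was 422 CPM in 355 cells and 330 CPM in 343 cells. In 2 of the squares the TAK-981 library was the lower one. These were S-phase range 3 with G2/M range 2, at 309 and 411 CPM in 92 and 135 cells (log2 ratio -0.41, -0.56 to -0.26), and S-phase range 1 with G2/M range 4, at 215 and 366 CPM in 19 and 14 cells (-0.77, -1.24 to -0.30).

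**Figure D5:**
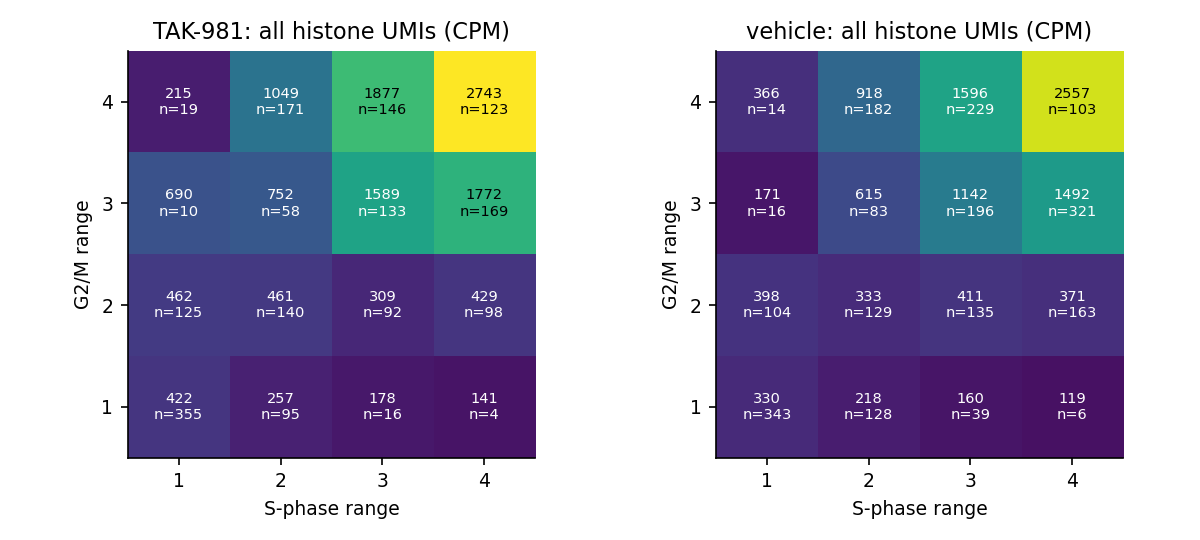
CPM of all clustered histones in A20 cells by S-phase range (x axis) and G2/M range (y axis), one panel per arm, with the number of cells in each square. The highest square in both arms is range 4 of both lists, at 2743 and 2557 CPM; squares with few cells are imprecise.

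The promoters of Hist1h1b and Hist1h1c are shown because the former climbed across the S-phase ranges and the latter did not. The 250 bases before the RefSeq start (GRCm38.p6) are given 5′ to 3′ on the gene's strand, with matches to AAACACA (the H1 box), CCAAT and TATAAA on either strand in capitals. Hist1h1b lies on the minus strand at chr13:21780626-21780875 and Hist1h1c on the plus strand at chr13:23738557-23738806. Both hold AAACACA and CCAAT, and TATAAA was matched in Hist1h1b but not in Hist1h1c.
Hist1h1b: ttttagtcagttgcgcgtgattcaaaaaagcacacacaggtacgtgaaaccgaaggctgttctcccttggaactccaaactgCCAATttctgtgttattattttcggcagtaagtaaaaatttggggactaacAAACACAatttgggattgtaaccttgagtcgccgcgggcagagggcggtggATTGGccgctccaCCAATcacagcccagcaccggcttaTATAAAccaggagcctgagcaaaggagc
Hist1h1c: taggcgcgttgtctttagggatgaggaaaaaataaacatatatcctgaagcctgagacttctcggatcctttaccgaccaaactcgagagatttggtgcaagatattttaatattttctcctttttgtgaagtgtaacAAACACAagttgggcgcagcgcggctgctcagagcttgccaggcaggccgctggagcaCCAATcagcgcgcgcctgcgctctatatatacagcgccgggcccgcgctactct
Promoters were matched for 62 of the 69 members, which share 61 distinct promoters, since both Hist2h2bb rows match the same one, and each was counted once. Windows of some neighbouring H2A and H2B genes on opposite strands overlap, such as those of Hist1h2ae and Hist1h2bg. A site in such an overlap was counted for both classes, so the H2A and H2B shares are not independent. AAACACA was in 83.3% of the H1 promoters, 11.8% of H2A, 12.5% of H2B and 0% of H3 and H4. It was in 6.22% of all 27025 promoters of the same length. The H1 gene without it was Hist1h1a. CCAAT was in every H1, H2A and H2B promoter, in 80.0% of H3, in 25% of H4 and in 34.5% of all promoters. The octamer ATTTGCAT was in 41.2% of the H2A and 37.5% of the H2B promoters, in 0% of the other classes and in 1.61% of all promoters. TATAAA was in 40.0% to 66.7% of each class and in 13.0% of all promoters. A match is a description of the letters, not a bound site.

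Per cell, histone UMIs were concentrated in a minority of A20 cells. With each cell thinned to 4000 UMIs, 73.9% of TAK-981 cells (71.8 to 76.0, exact Clopper-Pearson interval) and 68.7% of vehicle cells (66.7 to 70.6) had a histone UMI. Without thinning the shares were 92.6% and 91.4%. The tenth of cells with most held 51.4% and 49.3% of the histone UMIs. By class the thinned shares were 28.3% and 21.5% for H2B, 27.1% and 21.7% for H4, 41.3% and 37.5% for H1, 18.3% and 16.3% for H3, and 50.3% and 50.5% for H2A. Every cell type here held histone UMIs. The lowest thinned shares for any histone were in myeloid cells, at 61.5% and 47.7%, whose median depths were 8287 and 10636.5 UMIs.

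In T cells the sums rested on few cells. All histones held 575 UMIs in 45 TAK-981 cells (1293 CPM) and 913 UMIs in 60 vehicle cells (1058 CPM), a log2 ratio of 0.29 (0.14 to 0.44). A single vehicle cell held 25.5% of the vehicle UMIs: without the top cell of each library the ratio was 0.55, whereas the mean of the cells' shares gave -0.16 and thinning -0.29, so no direction is given for T cells. H2A was at 632 and 461 CPM, a log2 ratio of 0.45 (0.23 to 0.68), which likewise turned to -0.14 and -0.10. Hist1h2ae had 158 and 134 UMIs (355 and 155 CPM) and a log2 ratio of 1.19 (0.85 to 1.54), and 1.24 without the top cells. Hist1h1b was at 0.65 (0.09 to 1.21). H1 (0.15), H2B (0.07), H3 (0.06) and H4 (0.24) had intervals that include 0. Of the 20 members with at least 10 UMIs, 2 were at least 2-fold higher (6.32 percent of all genes), 1 at least 2-fold lower (9.42 percent) and 12 above 0 (46.1 percent). Beside this, the summed B-cell markers in T cells were at 823 CPM with TAK-981 and 1289 with vehicle, all 8 with UMIs in both, the S-phase list at 2435 and 3108 CPM and the G2/M list at 2894 and 2378 CPM. An alternative without T cells holding a Cd79a or Lyz2 UMI kept 35 TAK-981 and 47 vehicle cells, and its values are not given here. The part of the S-phase and G2/M lists, and of B-cell transcripts in the cells kept, was not tested.

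Myeloid cells had the lowest histone level, 73 UMIs (201 CPM) with TAK-981 and 113 (212 CPM) with vehicle, a log2 ratio of -0.07 (-0.52 to 0.36). Their S-phase transcripts were also low, at 515 and 466 CPM, beside 2886 and 3256 CPM in A20 cells. Hist1h2al had the most UMIs there, 22 and 46. The summed B-cell markers in myeloid cells were at 284 CPM with TAK-981 and 217 with vehicle, all 8 with UMIs in both. An alternative without myeloid cells holding a Cd79a or Cd3 UMI kept 35 and 39 cells, and its values are not given here. The part of B-cell transcripts in the myeloid histone values was not tested further. Only 4 members had at least 10 UMIs: 2 were at least 2-fold higher (10.8 percent of all genes), 1 at least 2-fold lower (14.3 percent) and 2 above 0 (44.4 percent). A difference between arms in myeloid cells was not detectable at this depth.

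In A20 cells the 6 lists of related genes had median log2 ratios from -0.17 to 0.03, beside 0.32 over the 58 histone members. Single genes such as Upf1 and Daxx were as high as H4 (0.48). In none of the lists was a gene 2-fold apart, and no histone class was either. Of all genes, 59.8 percent were above 0. Of the 38 S-phase replication genes 6 were above 0 (median -0.17), with the helicase subunit Mcm6 at -0.44, Ung at -0.41, Blm at 0.15 and the cyclin Ccne2 at 0.32. Of the 30 G2/M genes 11 were above 0 (median -0.06), from Cdca3 at -0.23 and Birc5 at -0.20 to Cenpe at 0.17 and Mki67 at 0.36. Of 10 measured replacement histones, which are made outside S phase too, 6 were above 0 (median 0.03), with H2afx at -0.22, H3f3a at -0.05, H1f0 at 0.21 and Cenpa at 0.25. Among the 15 genes of histone RNA processing and decay 5 were above 0 (median -0.07), with Zfp473 at -0.36, Cstf2 at -0.16, Casp8ap2 at 0.33 and Upf1, a factor of histone mRNA decay, at 0.56. Of 20 histone chaperones 6 were above 0 (median -0.09), with the replication-linked Chaf1b at -0.37 and Asf1b at -0.26, and the H3.3 chaperones Hira at 0.39 and Daxx at 0.53. Of 12 genes of the polyadenylation machinery 7 were above 0 (median 0.02), from Nudt21 at -0.09 and Cstf3 at -0.08 to Pcf11 at 0.24 and Papolg at 0.30. Among the genes named here, the intervals of Zfp473 (-0.83 to 0.09, 60 and 126 UMIs) and Cstf3 (-0.19 to 0.02) include 0.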

How the data were processed

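The authors deposited 1 raw count matrix for each library, with genes against barcodes and integer UMI counts, per the file headers. Cell Ranger 2.1.1 and Seurat 2 are named in the submitters' processing notes, and the authors' genome build is not given in the sources used here. The lowest UMI total of a barcode was 4670 (TAK-981) and 5965 (vehicle).

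From these counts, computed with pandas 2.3.3, numpy 2.4.6 and scipy 1.17.1 under Python 3.11.15 (figures: matplotlib 3.10.9), cells with under 10% mitochondrial UMIs were called A20 (Cd79a at least 1, no Cd3 or Lyz2 UMI), T (Cd3d, Cd3e and Cd3g sum at least 2) or myeloid (Lyz2 at least 5). No doublets were called or removed. UMIs were summed per arm and type and divided by all UMIs of those cells, and ratios were given exact conditional binomial 95% intervals. The interval code was run on simulated counts drawn independently for each gene, without cells. That check cannot show whether the intervals hold for UMIs concentrated in few cells. A gene counted as measured with at least 10 UMIs.

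Named were up to 6 members per class with most A20 UMIs, members at least 2-fold apart with an interval leaving out 1, and the 2 highest and 2 lowest genes of each related list with at least 100 UMIs. Members, lists and tests were chosen with earlier results of these data known. Reads of near-identical histone copies could be split or lost by the authors' counting. Alternatives covered scaling, thinning, cell limits and cycle weighting. Those for single members beyond scaling and thinning, and the one without the most abundant member, were chosen after seeing the data.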

Additional observations from a re-analysis of the deposited data

Results flagged for a closer look

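Hist1h2al moved in opposite directions in A20 and T cells: its log2 ratio was 0.22 in A20 cells and -0.98 (-1.63 to -0.37) in T cells, and their counting intervals do not overlap. In T cells it had 28 UMIs with TAK-981 and 107 with vehicle, 59 of the latter in 1 cell. Without the cell with most histone UMIs in each library, the T-cell value was 0.21. A test across replicates of this difference was not possible with 1 library per arm.

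Barcodes with under 10% mitochondrial UMIs that belonged to none of the 3 cell types were used in no comparison and also held histone UMIs. In these 182 TAK-981 and 160 vehicle barcodes the levels were 1125 and 779 CPM, a log2 ratio of 0.53 (0.44 to 0.62).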

How the results depend on the processing

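No paired analysis was possible because each arm has 1 library and its number is only a name. Median-of-ratios scaling, which moves the median of all A20 genes by 0.05, gave A20 log2 ratios of 0.11 for H1, -0.0047 for H2A and 0.11 for all histones. Thinning to 4000 UMIs gave -0.032 for H2A and 0.14 for all. Without the 5% of cells with most UMIs the values were 0.059 (H1), -0.016 (H2A), 0.12 (H3) and 0.10 (all), and with Cd79a of at least 3 they were 0.010 (H2A) and 0.13 (all). Equal S-phase ranges gave 0.32 (H1), 0.20 (H2A), 0.36 (H3), 0.55 (H4) and 0.30 (all), and equal G2/M ranges 0.26 (H1), 0.14 (H2A), 0.30 (H3) and 0.25 (all). H2B without its most abundant member was 0.26. In T cells the mean of the cells' shares gave -0.45 (H1), -0.14 (H2A) and -0.16 (all), and thinning -0.77 (H1), -0.10 (H2A), -0.66 (H3) and -0.29 (all). Without the T cell with most histone UMIs in each library the values were 0.68 (H1), 0.73 (H2A) and 0.55 (all), with single members at -0.15 (Hist3h2ba), 0.090 (Hist1h1e), 0.25 (Hist1h1c) and 0.21 (Hist1h2al). Without the most abundant member they were 0.49 (H1) and -0.15 (H2A). Members at least 2-fold higher in A20 cells numbered 2, not 7, at a minimum of 50 UMIs and 2 after thinning, and members at least 2-fold lower numbered 2, not 0, at a minimum of 1 UMI and 2 after thinning. Hist1h4k was -0.15 after thinning. The cause of these shifts was not tested. In A20 cells H1, H2B, H3, H4 and all histones kept their direction under every alternative run. Few T and myeloid cells limit those values.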

Other observations

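Barcodes left out for 10% or more mitochondrial UMIs did not show the A20 difference. Among those with a Cd79a UMI and no Cd3 or Lyz2 UMI, 275 TAK-981 barcodes were at 894 CPM of histone UMIs and 88 vehicle barcodes at 933 CPM, a log2 ratio of -0.06 (-0.19 to 0.07).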
